A study of Mus musculus with 117 samples.

Results

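Ribosome-bound RNA was pulled down from the spinal cord of a mouse line that targets astrocytes. The RNA of postnatal day 21 (P21) was compared with that of P14, the end and the start of the third postnatal week. The comparison used the 9 libraries of uninjured mice that the labels give at these ages, 4 at P21 and 5 at P14, out of 117 in the series. The mice carried the mGfap-Cre-73.12 transgene, in which a mouse Gfap promoter drives Cre, and the RiboTag allele, which puts an HA tag on the ribosomal protein Rpl22 in cells that have had Cre. The libraries hold the RNA that an antibody to HA pulled down from spinal cord tissue. Markers of cell types other than astrocytes were present in it, as given below. No mouse of these groups had an injury or a treatment. By the labels, replicates 1 to 3 at P14 and 1 and 2 at P21 were female, and replicates 4 and 5 at P14 and 3 and 4 at P21 were male. Because the tag is permanent, cells that descend from a cell that once had Cre also carry it, and in these bulk samples fewer cells of a type and less RNA per cell cannot be told apart. The labels do not say whether the libraries of 1 age came from separate mice, so p-values measure the spread between these libraries.

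In the rodent spinal cord most astrocytes are born around birth, divide locally during the first postnatal weeks and then leave the cell cycle. As they mature they extend fine processes to synapses and endfeet to blood vessels, couple through gap junctions, and take up transmitter and potassium. Oligodendrocytes myelinate over the same weeks, eyes open and weaning approaches, so several glial types change in the third week.

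The 9 libraries held 67253656 to 85779903 counts at P14 and 80716991 to 97228799 at P21, and 17312 to 18335 genes had at least 1 count in each. The P14 libraries stood apart from all others in how their counts were shared between short and long genes. The median log2 CPM (read counts scaled to library size) of genes with up to 1000 exon bases, relative to each gene's mean over the 28 mGfap-line RiboTag libraries, minus that of genes over 6000 exon bases, was 0.69 to 0.98 in the 5 P14 libraries, -0.30 to 0.14 in the 4 P21 libraries and at most 0.53 in any library of another age. Among the P21 libraries, replicate 1 was the nearest to P14. A single gene of the count table, 100861531, to which the gene annotation used here gives no symbol, took 7.91% to 16.0% of the counts at P14 and 2.35% to 11.7% at P21. Each count of list members below is therefore given as fitted and, where the calls differ, with a length offset. In the offset the smooth trend of each library on exon length was taken out before the test. For single genes the log2 fold change with the offset is given for some only, and CPM values are always without it. The offset was chosen after seeing the data. What sets the length trend was not tested, and since all P14 libraries share it, the trend and the age cannot be told apart.

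**Figure D1:**
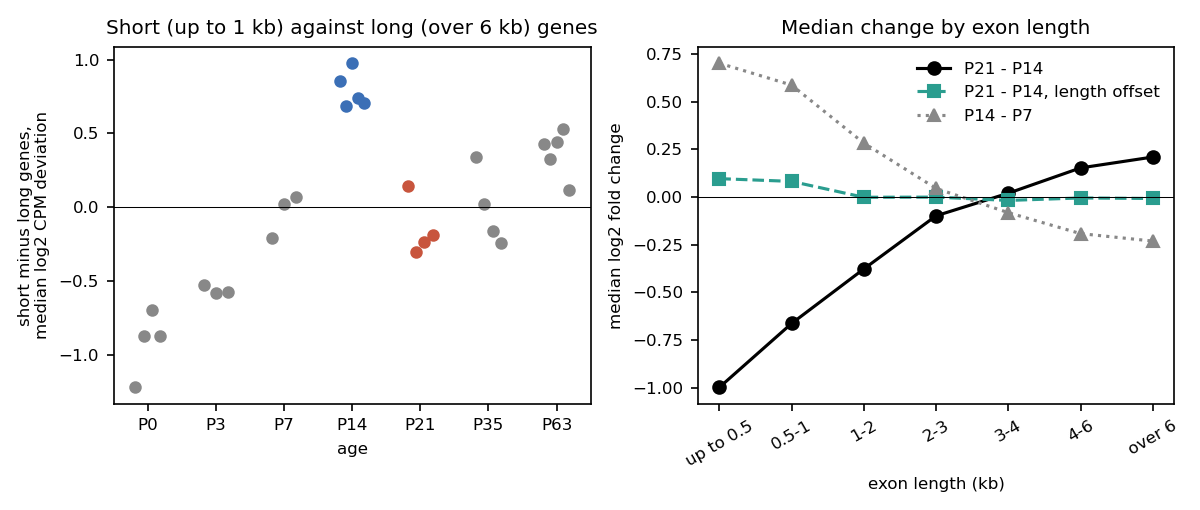
Left, 1 point per library: the median log2 CPM deviation of genes up to 1 kb of exon minus that of genes over 6 kb, by age. The 5 P14 libraries (blue) lie between 0.69 and 0.98, above all 23 others, and the 4 P21 libraries (red) between -0.30 and 0.14. Right, the median log2 fold change in bins of exon length: it runs from -0.999 in genes up to 500 bases to 0.21 over 6000 bases for P21 minus P14 (black), the other way for P14 minus P7 (grey), and stays between -0.02 and 0.10 with the length offset (green).

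Of 18041 genes tested, 2057 were higher at P21 (11.4%) and 2108 lower (11.7%) at a false discovery rate (FDR) under 0.01 by the edgeR quasi-likelihood test, 23.1% together, and 1099 of them (6.09%) differed at least 2-fold. Normalised values did not overlap between the ages in 38.1% of genes, a condition that the rule for naming the 12 largest changes in each direction sets. The shares of 11.4% and 11.7% stand beside each count of list members below. With the length offset 1824 were higher (10.1%) and 1672 lower (9.27%). 2767 genes were called in both fits, which is 66.4% of the first set and 79.1% of the second, and 2755 of these had the same sign. The calls without the offset were uneven over length. Among 1210 genes with up to 1000 exon bases 367 were lower and 7 higher, against 67 and 77 with the offset, and among 3903 genes over 6000 bases 180 were lower and 766 higher, against 402 and 441. The next step was much smaller in number: 119 genes (0.66%) differed between P35 and P21, 32 higher (0.177%) and 87 lower (0.482%) at P35, against 3388 (18.8%) between P14 and P7. These comparisons share libraries with the one between P21 and P14.

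Many genes of the cell cycle fell from P14 to P21. Of 38 proliferation genes, 20 were lower at P21 and 0 higher, with a median log2 fold change of -0.91 against -0.03 over all genes tested. With the offset 23 were lower, the median was -0.90, and 1 was higher, Pcna, the DNA polymerase clamp, at a log2 fold change of 0.30. Ube2c, a ubiquitin-conjugating enzyme of the anaphase-promoting complex, read 13.4, 15.7, 11.1, 16.2 and 13.2 CPM at P14 and 2.30, 3.77, 1.97 and 2.56 CPM at P21. The groups did not overlap, and Ube2c was 5.26-fold lower at P21 (log2 fold change -2.40, standard error 0.24, adjusted p = 6.30e-08 by edgeR, and -1.75 with the offset). Cdk1, the kinase that drives entry into mitosis, read 9.02, 10.4, 9.47, 10.6 and 8.72 CPM at P14 and 2.28, 2.77, 1.84 and 2.57 CPM at P21 (log2 fold change -2.03 ± 0.33, adjusted p = 3.05e-05). Ccnb2, the B-type cyclin that activates it, went from 5.96 ± 0.80 CPM (SD, n = 5) to 1.44 ± 0.25 CPM (SD, n = 4). Birc5, which guides chromosome segregation and cytokinesis, went from 9.0 ± 1.94 to 1.91 ± 0.40 CPM. Values did not overlap between the ages in any of these genes. Other cell cycle genes were among the 12 largest falls of all genes, with Melk, a kinase of dividing progenitors, from 3.89 ± 0.58 to 0.72 ± 0.36 CPM, and Cenph, a kinetochore protein, from 2.02 ± 0.92 to 0.19 ± 0.06 CPM. At P35 Ube2c had a mean of 0.84 CPM and Cdk1 of 0.90 CPM. The count of 20 was within 1.5 times of itself with every library left out in turn and in either sex alone.

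The promoters of such genes are known for a pair of elements, a box that reads CCAAT and an element that reads TTTGAA, the cell cycle homology region, which together time their transcription to G2 and mitosis. Promoter windows of 250 bases before to 50 after the RefSeq start were found for 30 of the 38 genes in the RefSeq table of build GRCm38.p6. TTTGAA, read on either strand, was in 13 of them (43.3%) against 12.5% of the 13448 windows of genes tested, CCAAT was in 24 (80.0%) against 38.1%, and both were in 13 (43.3%) against 5.11%. CCAAT was not particular to this list: of 17 windows of the heat shock and folding genes below, 15 (88.2%) held CCAAT and 0 held TTTGAA. The window of Birc5 held neither, which says only that these letters are not in this window. The windows of Ube2c, Ccnb2 and Cdk1, which with Birc5 are the 4 called members with the largest fall, are printed 5′ to 3′ on the strand of the gene, with both motifs and their reverse complements in capitals. In Ube2c a CCAAT and its reverse complement overlap.
Ube2c, chr2:164769679-164769978, plus strand: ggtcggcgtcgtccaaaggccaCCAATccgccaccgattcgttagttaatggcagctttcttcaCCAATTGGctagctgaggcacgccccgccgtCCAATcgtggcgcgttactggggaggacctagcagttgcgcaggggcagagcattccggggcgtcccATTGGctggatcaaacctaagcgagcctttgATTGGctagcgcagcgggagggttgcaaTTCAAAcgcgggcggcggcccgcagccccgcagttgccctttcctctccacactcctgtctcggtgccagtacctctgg
Ccnb2, chr9:70421505-70421804, minus strand: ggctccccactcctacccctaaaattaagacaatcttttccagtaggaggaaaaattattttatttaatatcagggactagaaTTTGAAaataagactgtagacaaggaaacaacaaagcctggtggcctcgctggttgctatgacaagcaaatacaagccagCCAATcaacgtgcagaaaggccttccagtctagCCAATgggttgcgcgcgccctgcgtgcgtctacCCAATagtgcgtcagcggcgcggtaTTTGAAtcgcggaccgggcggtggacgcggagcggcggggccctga
Cdk1, chr10:69352863-69353162, minus strand: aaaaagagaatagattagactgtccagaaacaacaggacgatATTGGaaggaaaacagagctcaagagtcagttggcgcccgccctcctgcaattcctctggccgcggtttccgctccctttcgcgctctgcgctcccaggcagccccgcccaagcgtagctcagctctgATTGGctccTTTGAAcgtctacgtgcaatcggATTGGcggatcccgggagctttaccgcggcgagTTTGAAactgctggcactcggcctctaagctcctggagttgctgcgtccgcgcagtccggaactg

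Some genes of immature cells fell as well. Of 21 chromatin and immature transcription factor genes 9 were lower and 0 higher (median log2 fold change -0.60; 8 lower with the offset). Sox11, a transcription factor of young neurons and glia, read 22.9 to 32.6 CPM at P14 and 11.2 to 13.0 CPM at P21 (log2 fold change -1.11 ± 0.17, adjusted p = 8.82e-06 by edgeR), and the groups were well apart. Hmga2, a chromatin protein of embryonic cells, was low already at P14, at 0.31 to 0.67 CPM, and was 0 to 0.18 CPM at P21. Lmnb1, a lamin of the nuclear envelope, read 57.0, 53.2, 52.3, 49.6 and 51.3 CPM at P14 and 20.6, 20.1, 16.1 and 16.8 CPM at P21 (log2 fold change -1.52 ± 0.08, adjusted p = 1.50e-12). It was the called member among 9 intermediate filament and cytoskeleton genes, in which Gfap, Vim and Nes did not pass. Fabp7, the brain fatty acid binding protein of radial glia and young astrocytes, read 1338, 1034, 1286, 1315 and 1105 CPM at P14 and 398, 383, 353 and 345 CPM at P21. Its log2 fold change was -1.72 ± 0.19 (adjusted p = 2.80e-07) and -0.96 with the offset, and its relative Fabp5 fell from 199 ± 20.5 to 74.4 ± 2.10 CPM. The log2 fold change of Fabp5 was -1.42 as fitted and -0.79 with the offset.

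Genes of insulin-like and other growth factor signalling moved both ways. Igfbp2, which binds insulin-like growth factors, read 363, 340.0, 469.9, 354 and 285 CPM at P14 and 79.5, 77.2, 74.2 and 64.5 CPM at P21, a 4.91-fold difference without overlap (log2 fold change -2.29 ± 0.16, adjusted p = 5.24e-10 by edgeR, and -1.88 with the offset). Igfbp4 fell from 416 ± 27.0 to 170 ± 36.5 CPM, and the heparin-binding growth factors Mdk and Ptn fell from 219 ± 24.6 to 102 ± 7.65 CPM and from 752 ± 87.7 to 379.8 ± 21.7 CPM. The log2 fold change of Mdk was -1.10 as fitted and -0.69 with the offset, and that of Ptn -0.99 and -0.69. Of 21 genes of this list 4 were lower, these ones, and 4 higher: Ntrk2, the BDNF receptor, Igfbp5, Igf2r and Plagl1, at log2 fold changes of 0.91, 0.88, 0.64 and 0.54. The calls of Igf2r and Plagl1 were lost with the offset and Grb10 was then called, at -0.79.

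The naming rule gave 12 genes with the largest rises, led by Etnppl. Etnppl (chr3:130617448-130635750, mm10), an enzyme that breaks down phosphoethanolamine, read 1.90, 2.34, 0.88, 0.48 and 1.08 CPM at P14 and 37.9, 35.7, 44.1 and 35.1 CPM at P21. Etnppl was 28.1-fold higher (log2 fold change 4.81 ± 0.66, adjusted p = 7.33e-06 by edgeR, 4.88 with the offset), and its mean went on to 83.8 CPM at P35 and 161 CPM at P63. C3, the central complement component (chr17:57203967-57228136), read 49.7, 44.3, 45.1, 52.0 and 53.0 CPM at P14 and 399, 453, 489.7 and 346 CPM at P21 (log2 fold change 3.11 ± 0.31, adjusted p = 1.37e-07), and was 591 CPM at P35. Car14, a membrane-bound carbonic anhydrase, read 7.68 to 14.9 CPM at P14 and 97.2 to 132 CPM at P21 (log2 fold change 3.18 ± 0.34). All 3 genes kept the call with the offset. The naming rule takes only genes without overlap between the ages, so their lack of overlap follows from the choice.

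Others of the 12 rose as well. Slc24a4, an exchanger of sodium, calcium and potassium, went from 4.16 ± 1.15 CPM (SD, n = 5) to 34.4 ± 10.6 CPM (SD, n = 4). Galnt15, which starts O-glycan chains, went from 1.82 ± 0.47 to 19.7 ± 4.86 CPM. Lgals3bp, a secreted glycoprotein that binds galectin, went from 1.17 ± 0.50 to 11.4 ± 2.62 CPM. The lncRNA E030003E18Rik (chr19:20492715-20556410) went from 16.2 ± 6.57 to 161 ± 38.2 CPM. Cntn2, an adhesion molecule of axons and of the myelin next to nodes of Ranvier, read 6.22, 7.97, 14.7, 6.35 and 5.8 CPM at P14 and 69.4, 60.5, 63.6 and 61.3 CPM at P21. Nos1, a nitric oxide synthase, went from 0.67 ± 0.42 to 5.64 ± 2.40 CPM, and Cilp, a matrix protein known from cartilage, from 0.09 ± 0.09 to 1.10 ± 0.41 CPM (log2 fold change 3.62), Cilp without a call under the offset. At P63 Cntn2 and Cilp were lower in the pulldown than in the flow-through RNA (log2 ratios of -1.02 and -2.79), Nos1 was not called (0.70), and the other 4 genes of this paragraph were between 2.03 and 4.55.

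**Figure D2:**
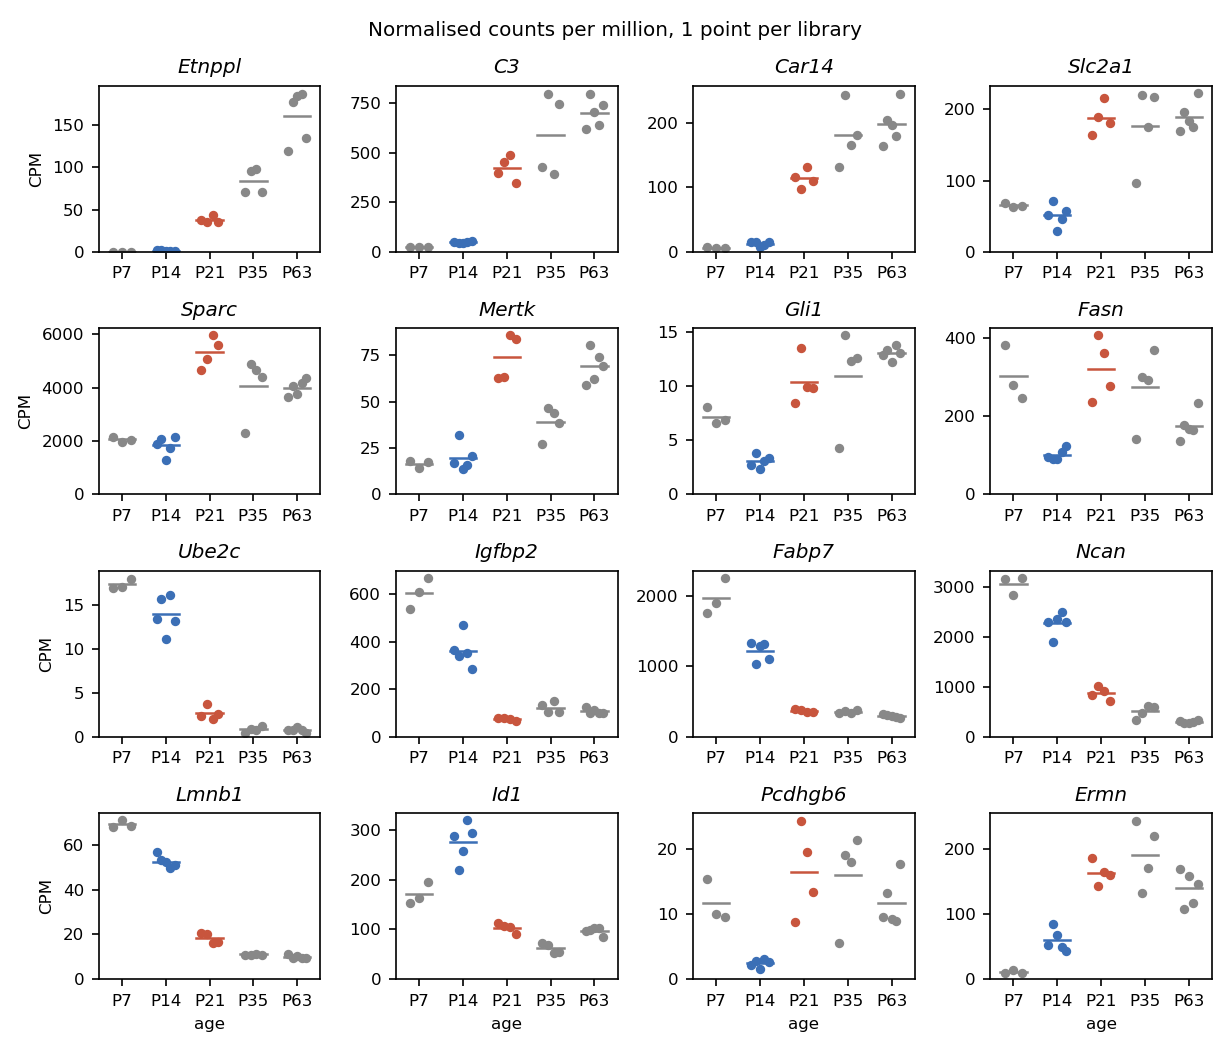
Normalised counts (CPM, linear axis from 0, scaled to each gene) of 16 genes in each library at P7, P14 (blue), P21 (red), P35 and P63, with a line at the mean of each age. Etnppl, C3 and Car14 rise at P21 and are higher again at P63, Ube2c, Igfbp2, Fabp7, Ncan and Lmnb1 fall at each of the steps from P7 to P21, and Pcdhgb6, Fasn and Gli1 are lower at P14 than at P7 and P21.

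Some of the genes that identify astrocytes passed. Of 12 astrocyte markers 2 rose and 0 fell, beside 11.4% and 11.7% of all genes. Their median log2 fold change was 0.53, against -0.03 over all genes tested. The 2 were the zinc transporter Slc39a12, from 345 ± 40.1 to 685 ± 85.7 CPM, and the gap junction protein Gja1, from 1599 ± 288 to 2494 ± 188 CPM, with adjusted p of 0.0073 and 0.0068 by edgeR. Gfap, the astrocyte intermediate filament, read 21401, 20229, 16745, 23692 and 23912 CPM at P14 and 30673, 31170.1, 33118 and 26706 CPM at P21. The ages did not overlap, yet the log2 fold change of 0.52 ± 0.19 missed the threshold (adjusted p = 0.036). Aqp4, the endfoot water channel, gave 3645 ± 606 and 6059 ± 1067 CPM (adjusted p = 0.013), and Aldh1l1, a folate enzyme, 313 ± 37.4 and 352 ± 35.1 CPM (adjusted p = 0.53). The summed level of the 12 markers was 37204 to 48543 CPM at P14 and 58254 to 69291 CPM at P21, without overlap. The count of called markers depended on the fit: with the libraries of both ages fitted without the other ages 9 of the 12 were higher, DESeq2 called 4, and with 1 library left out 0 to 1 passed in each case.

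Some genes for transmitter and potassium handling and for contacts with vessels and synapses rose. Of 14 amino acid transmitter uptake genes 3 were higher and 0 lower, namely Abat, which breaks down GABA (679.7 ± 50.4 to 1178 ± 152 CPM), the cystine transporter Slc7a11 and Maob. Of 16 endfoot genes 4 were higher and 0 lower. Kcnj10, the potassium channel Kir4.1, read 3094, 3269.6, 2459.9, 2741 and 2922 CPM at P14 and 4296, 4728, 4919 and 4475 CPM at P21 (log2 fold change 0.67 ± 0.15, adjusted p = 6.79e-04), and with the offset 0.43 at an adjusted p of 0.011, where Gpr37l1 was also called higher. Dag1, the dystroglycan that anchors endfeet to the basal lamina, went from 181 ± 39.9 to 360.3 ± 68.8 CPM, its partner Dmd rose by a log2 fold change of 0.84, and the chloride channel Clcn2 by 0.65. Of 18 astrocyte receptors 2 rose, a share near the 11.4% of all genes, the adrenergic receptor Adra1a and the sphingosine phosphate receptor S1pr1, at 1.45 and 0.71 on the log2 scale. With the offset Adra2a and Itpr2 were also called, lower at P21.

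Among 17 secreted and phagocytic genes that act at synapses, 6 rose and 2 fell. Sparc and Sparcl1, secreted matricellular proteins, are known for opposite actions on synapse formation, and both rose. Sparc read 1901, 2079.5, 1276, 1742 and 2152 CPM at P14 and 4643, 5059.6, 5986 and 5611 CPM at P21 (log2 fold change 1.54 ± 0.16, adjusted p = 1.30e-07), and Sparcl1 went from 6982 ± 1430 to 15155 ± 1780 CPM. The phagocytic receptors Mertk and Megf10, which let astrocytes engulf synapses, rose too. Mertk read 16.9, 32.0, 13.6, 15.9 and 20.5 CPM at P14 and 63, 63.3, 86.0 and 83.7 CPM at P21 (log2 fold change 1.90 ± 0.31), and Megf10 went from 43.2 ± 5.47 to 87.6 ± 11.2 CPM. Nlgn3 and Nlgn1, adhesion proteins, rose by 0.91 and 0.69 on the log2 scale, Nlgn1 without a call under the offset, and Thbs3 and Nlgn2 fell by 0.67 and 0.35 on the log2 scale. The thrombospondins Thbs1, Thbs2 and Thbs4 and the glypicans Gpc4, Gpc5 and Gpc6 did not pass.

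Some enzymes of lipid and sugar metabolism rose. Of 13 fatty acid synthesis genes 6 rose and 0 fell, and also 6 with the offset, where Thrsp took the place of Fads1. Fasn, fatty acid synthase, read 95.2, 91.3, 90.4, 107 and 122.8 CPM at P14 and 236, 408, 362 and 277 CPM at P21 (log2 fold change 1.66 ± 0.22, adjusted p = 1.78e-06). Acly, which makes cytosolic acetyl-CoA, went from 128 ± 11.4 to 239.8 ± 25 CPM, and the desaturase Fads2 from 609.6 ± 136 to 1106 ± 111 CPM. Both Fasn and Acly were at P7 near their P21 level, at means of 302 and 231 CPM. Of 25 cholesterol synthesis genes 8 rose and 2 fell (Acat2 and Mvk, both at -0.60 on the log2 scale, Acat2 without a call under the offset, where Msmo1 was higher), with a median of 0.07. Lss, lanosterol synthase, went from 36.2 ± 4.18 to 75.2 ± 13.1 CPM, while Hmgcs1 did not pass. Abca2, a lipid transporter also used by oligodendrocytes, read 72.4 to 105 CPM at P14 and 217 to 280.4 CPM at P21 (log2 fold change 1.59 ± 0.15).

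Of 15 glycogen, glycolysis and lactate genes 6 rose and 1, Ldha, fell by 0.48 on the log2 scale. Slc2a1, the glucose transporter GLUT1, read 51.6, 71.5, 29.4, 46.1 and 57.2 CPM at P14 and 164, 189.8, 216 and 181 CPM at P21 (log2 fold change 1.88 ± 0.25, adjusted p = 3.34e-06). Hk1, hexokinase, went from 134 ± 12.7 to 291 ± 25.3 CPM, Pfkfb3, an activator of glycolysis, from 66.1 ± 8.74 to 137 ± 13.9 CPM, and Pygm, a glycogen phosphorylase, from 428 ± 42.4 to 726 ± 74.4 CPM. All 7 kept their calls with the offset, under which Ldhb was also higher and Slc16a1 lower. Of 13 fatty acid oxidation genes 3 rose, with Acsl6, an acyl-CoA synthetase, from 261 ± 63 to 742 ± 112 CPM, and Acadm and Acadvl fell by 0.50 and 0.35 on the log2 scale. With the offset Acadvl lost its call and Cpt2 was called higher. Of 18 metallothionein and antioxidant genes 5 rose and 0 fell, among them the glutathione transferase Gstm1, from 336 ± 28.1 to 596 ± 30.6 CPM.

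Signalling genes moved both ways. In hedgehog signalling, Gli1, the transcription factor that the pathway itself induces, read 2.70, 3.80, 2.38, 3.09 and 3.33 CPM at P14 and 8.42, 13.6, 9.96 and 9.83 CPM at P21 (log2 fold change 1.77 ± 0.24, adjusted p = 2.58e-06 by edgeR). Its receptor Ptch1, also an induced gene, went from 66.9 ± 6.99 to 172 ± 24.6 CPM, and the co-receptor Boc from 26.7 ± 5.08 to 65.9 ± 8.41 CPM, all without overlap. Of the genes that BMP signalling is known to induce, Id1 read 288, 219.9, 257, 321 and 294 CPM at P14 and 113, 106, 106 and 90.1 CPM at P21 (log2 fold change -1.41 ± 0.17, and -0.89 with the offset), and Id3 went from 565 ± 80.6 to 258 ± 29.0 CPM. The log2 fold change of Id3 was -1.13 as fitted and -0.51 with the offset. Smad6 and Smad7, inhibitors that BMP also induces, did not pass, at log2 fold changes of -0.41 and 0.42, and Id2, at -0.44, lost its call with the offset. Of 6 FGF-induced genes, Etv4, Spry1 and Spry2 fell by 1.18, 1.16 and 0.44 on the log2 scale and Etv5, Dusp6 and Spry4 did not pass, at 0.54, 0.16 and -0.18, while the receptors Fgfr1 and Fgfr2 rose by 0.65 and 0.72. In all, 7 of 42 genes of these pathways rose and 6 fell, beside 11.4% and 11.7% of all genes. Bmp4 and Hhip lost their calls with the offset and Sfrp1 was then called, at -1.08.

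In the extracellular matrix, Ncan, neurocan of the perisynaptic matrix, read 2298, 1887, 2357, 2485 and 2292 CPM at P14 and 841, 1017, 906 and 713 CPM at P21 (log2 fold change -1.38 ± 0.20, adjusted p = 6.26e-06). Cspg5 fell from 441 ± 22.1 to 254 ± 17.9 CPM, and Ptprz1, a receptor phosphatase that carries chondroitin sulfate, rose from 171 ± 23.6 to 428 ± 94.2 CPM. Of the 14 genes of this list 3 rose and 2 fell, and 2 rose and 4 fell with the offset, where Cspg4 and Tnc joined those that fell and Chst11 lost its call. Of 24 collagen, laminin and basement membrane genes 2 rose, Sparc and Col4a5, and 2 fell, Nid1 and Col16a1, with Hspg2 also lower under the offset. Over all genes 11.4% rose and 11.7% fell. Of 27 axon guidance genes 5 rose and 2 fell, against 2 and 4 with the offset. Plxnb1 and Robo2 rose in both. Of 34 Hox genes 7 fell and 1 rose, with 4 and 1 under the offset. Hoxa10 read 7.25, 10.2, 20.8, 11.3 and 11.3 CPM at P14 and 1.66, 4.21, 1.24 and 1.54 CPM at P21, with a mean of 15.9 CPM at P35, and Hoxd4 rose from 2.10 ± 0.39 to 6.03 ± 1.06 CPM.

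Among glial transcription factors 3 of 24 rose and 6 fell, beside 11.4% and 11.7% of all genes. Sox2, the progenitor factor that astrocytes keep, fell by 0.73 and Nfib, a driver of gliogenesis, by 0.51 on the log2 scale, and Glis3, Stat3 and Nfic rose by 1.66, 0.59 and 0.44. Nfic lost its call with the offset. Sox9, Nfia and Nfix did not pass, and Nfia and Id4 were called with the offset, at -0.58 and -0.46.

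Some complement and folding genes rose. Of 19 complement and reactive astrocyte genes 7 rose and 1, S100a10, fell, losing its call with the offset. Beside C3 they included Cp, the acute phase protein Serpina3n (71.9 ± 18.3 to 183 ± 19.5 CPM), Serping1, C4b and Cd44. Lcn2, Osmr, Timp1 and Steap4 did not pass. C3 was far higher in the pulldown than in the flow-through at P63 (log2 ratio 5.21). Of 20 heat shock and endoplasmic reticulum folding genes 8 rose and 0 fell, and 11 with the offset. Their summed level was 3397 to 3742 CPM at P14 and 4180 to 4949 CPM at P21. Later it was again near that of P14, at means of 3438 CPM at P35 and 3603 CPM at P63. Against P21, 2 of the 20 were lower at P35 and 0 higher, beside 0.482% and 0.177% of all genes. Hspa1b, the inducible HSP70, read 0.29, 0.52, 0.31, 0.68 and 0.24 CPM at P14 and 5.61, 3.19, 9.98 and 7.30 CPM at P21 (log2 fold change 3.99 ± 0.65, adjusted p = 2.72e-05). Its near-identical copy Hspa1a went from 1.13 ± 0.59 to 3.82 ± 0.94 CPM, and how reads were split between the copies is uncertain. Calr, the calcium-binding chaperone calreticulin, went from 239 ± 57.9 to 479 ± 50.6 CPM. The promoter window of Hspa1b is printed because this gene had the second largest rise by the rule and heat shock factor is known to bind inverted GAA triplets: GAANNTTC, which reads the same on both strands, is in capitals. It was in 4 of the 17 windows found for this list (23.5%) against 5.88% of windows of genes tested.
Hspa1b, chr17:34959189-34959488, minus strand: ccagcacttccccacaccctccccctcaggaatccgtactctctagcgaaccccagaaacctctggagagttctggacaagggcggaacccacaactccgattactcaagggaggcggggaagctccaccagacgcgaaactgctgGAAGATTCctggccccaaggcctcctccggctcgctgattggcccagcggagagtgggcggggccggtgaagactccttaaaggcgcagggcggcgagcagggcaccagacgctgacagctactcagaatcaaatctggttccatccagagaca

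Hormone, clock and stimulus-response genes moved in small numbers. Of 20 thyroid and glucocorticoid response genes 4 rose, among them the mineralocorticoid receptor Nr3c2 (7.46 ± 1.32 to 20.3 ± 4.52 CPM), the kinase Sgk1 (45.5 ± 11.4 to 114 ± 13.6 CPM) and the thyroid-induced corepressor Hr (124 ± 33.7 to 207 ± 29.0 CPM), Hr without a call under the offset, where Thrsp was higher and Nr3c1 lower. Of 18 clock genes 6 rose and 0 fell, but with the offset Dbp alone of them kept the call (53.8 ± 12.9 to 102 ± 7.90 CPM) and Cry1 was lower. Without P14 replicate 3 the count was 3, and without P21 replicate 3 or 4 it was 2. Of 19 immediate early genes 4 fell and 0 rose, against 3 and 1 with the offset, where Btg2 lost its call and Dusp1 was higher. Jund read 342, 216, 342, 352 and 277 CPM at P14 and 208, 143, 125 and 145 CPM at P21, Btg2, Ier2 and Klf6 fell by 0.91, 0.89 and 0.53, and Fos, Jun and Egr1 did not pass. Of 24 interferon-stimulated genes 3 rose and 0 fell, B2m and H2-D1 among them, beside 11.4% of all genes that rose, and with the offset Irf9 and H2-K1 were also higher. B2m read 106 to 124 CPM at P14 and 176 to 199 CPM at P21, and its log2 fold change was 0.67 as fitted and 1.35 with the offset.

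Counts in 2 large families of short genes changed most with the offset. Of 86 cytosolic ribosomal proteins 75 were lower at P21 and 0 higher, with a median log2 fold change of -0.91, and with the offset 28 were lower and 3 higher (Rpl28, Rpl10 and Rpl23a), with a median of -0.19. Of 80 nuclear genes of the respiratory chain 56 were lower and 0 higher (median -0.82), and with the offset 19 were lower and 11 higher (median -0.06). Rpl41, which has 449 exon bases, read 235, 185, 300.1, 211 and 191.8 CPM at P14 and 99.5, 72.5, 76.0 and 74.6 CPM at P21, and its log2 fold change of -1.48 became -0.45. Ndufa4, a cytochrome oxidase subunit, gave -1.25 and -0.28. Dbi and Cst3, abundant short mRNAs of astrocytes, were lower at P21 as fitted, at -1.06 and -0.62, and without a call under the offset, at -0.30 and 0.10, so that the direction of Cst3 turned. Actb, at 3978 ± 288 and 2576 ± 278 CPM, kept its call. Of the 13 mitochondrially encoded genes 0 passed in either fit (median 0.63). Ribosomal protein genes have many processed pseudogenes, with which they can share reads.

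**Figure D3:**
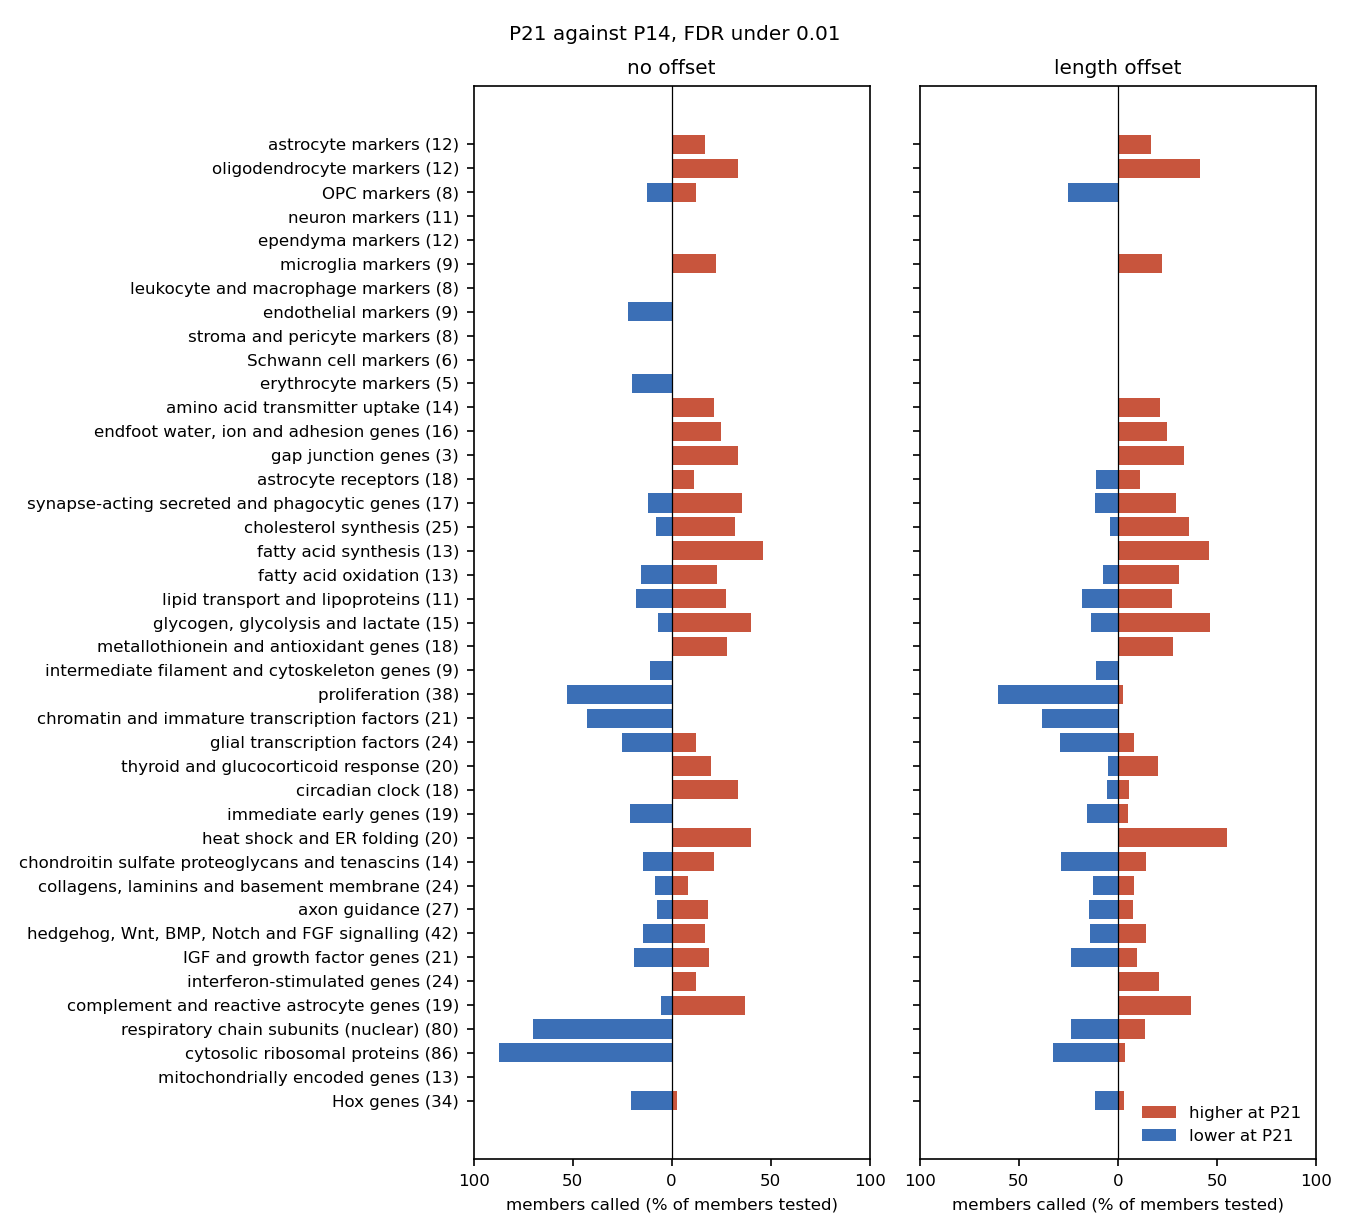
For each gene list (number of members tested in brackets), the share of members higher (red, right) and lower (blue, left) at P21 than at P14 at an FDR under 0.01, as fitted (left panel) and with the length offset (right panel). Over all genes tested the shares are 11.4% and 11.7% in the left panel and 10.1% and 9.27% in the right one, and the bars of the ribosomal protein and respiratory chain lists shorten most.

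RNA of other cell types was present at both ages. Of 12 oligodendrocyte markers 4 rose, Ermn, Ugt8a and Opalin among them, and 0 fell, with Aspa also higher under the offset. Ermn, a protein of the oligodendrocyte cytoskeleton, read 51.8, 85.6, 67.8, 49.2 and 43.8 CPM at P14 and 187, 143, 164 and 159.8 CPM at P21, without overlap (log2 fold change 1.45 ± 0.38, adjusted p = 4.83e-03 by edgeR). Mbp read 8705 to 13799 CPM at P14 and 10392 to 12229.7 CPM at P21, and did not pass (log2 fold change 0.08 ± 0.20, and -0.15 with the offset). The summed level of the list overlapped between the ages, at 15202 to 25489.5 CPM and 23435 to 26635 CPM. Of 8 markers of oligodendrocyte progenitors (OPCs) Gpr17, a receptor of cells that are about to differentiate, rose from 272 ± 105 to 512 ± 49.2 CPM, without a call under the offset, and Bcas1 fell from 909 ± 143 to 555 ± 38.6 CPM, with Cspg4 also lower under the offset. That is 1 gene of the 8 in each direction as fitted, where 11.4% of all genes rose and 11.7% fell. At P63 the pulldown was set beside the flow-through, the RNA left after the pulldown. Of the 12 oligodendrocyte markers 6 were at least 2-fold lower in the pulldown and 0 higher. Of the 8 OPC markers 0 were at least 2-fold lower and 5 higher, and all 12 astrocyte markers were at least 2-fold higher.

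The remaining marker lists were low or did not pass. The microglial genes P2ry12 and Csf1r rose from 1.74 ± 0.46 to 5.22 ± 0.41 CPM and from 4.28 ± 0.66 to 10.7 ± 2.75 CPM, 2 of 9 of their list, and the 9 summed to 107 to 133 CPM at P14 and 129 to 169 CPM at P21. Cldn5 and Lmcd1 were lower among 9 endothelial markers, and Hbb-bs was lower among 5 erythrocyte markers, and all 3 lost their calls with the offset. The erythrocyte sum was 3.58 to 6.76 and 0.79 to 3.39 CPM. None of the markers of neurons (11 tested), ependyma (12), leukocytes and macrophages (8), stroma and pericytes (8) or Schwann cells (6) passed. The summed level of the Schwann cell list did not overlap, at 8874 to 13258 CPM at P14 and 2500.0 to 7154 CPM at P21. All 6 Schwann cell markers and 9 of the 12 ependyma markers were at least 2-fold higher in the pulldown at P63. The part of these cells in the changes above was not tested.

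For many genes the change in the third week differed from that in the second. The contrast of the P21 minus P14 change with the P14 minus P7 change, both over 7 days, was past the threshold in 3845 of 18041 genes (21.3%), with 1753 above 0 (9.72%) and 2092 below (11.6%), and in 2901 (16.1%) with the offset. Most calls turned direction at P14. Of 1789 genes called in both steps 243 had the same sign, as had 908 of all 4165 genes called between P21 and P14. The P14 libraries enter the 2 steps with opposite signs, so a shift that they share cannot be told apart from a turn with age. By the naming rule the genes most above 0 were Lgals3bp and 5 clustered protocadherins, adhesion proteins known for cell recognition. Pcdhgb6 had a mean of 11.6 CPM at P7, read 2.23, 2.82, 1.52, 3.16 and 2.60 CPM at P14 and 8.79, 24.3, 19.5 and 13.4 CPM at P21, and had a mean of 16.0 CPM at P35. Pcdhga5 went from 1.19 ± 0.46 CPM at P14 to 7.39 ± 2.07 CPM at P21. Of all 56 clustered protocadherins tested, a family chosen after seeing these values, 22 were higher at P21 and 0 lower (median log2 fold change 1.80), 21 with the offset, and 0 were higher and 21 lower at P14 than at P7, where 10.4% and 8.33% of all genes were. Members of the alpha and gamma clusters share their last exons, so that reads of one can be counted for another and the members are not separate observations.

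Of the 6 genes most below 0 in that contrast, 3 were lower at both P7 and P21 than at P14 and called for P21 against P14. Dmrtb1, a DM-domain transcription factor, had a mean of 1.42 CPM at P7, read 7.76, 6.94, 7.38, 5.53 and 4.52 CPM at P14, and 0.69, 0.65, 0.31 and 0.82 CPM at P21. Epcam, an adhesion protein of epithelia, had means of 2.34 CPM at P7, 12.6 CPM at P14 and 2.32 CPM at P21, and Barx2 of 3.78, 19.5 and 4.24 CPM. Chad and Smim3 had means of 24.7 and 77.0 CPM at P14 and of 12.7 and 49.1 CPM at P21, from 1.88 and 5.66 CPM at P7, and were not called for P21 against P14. Opalin, a myelin protein, was the one of the 6 that went on rising, from 1.13 to 36.3 to 61.9 CPM, by a smaller step in the third week.

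No flow-through libraries at P14 or P21 were used here, so the 5 pulldown and 5 flow-through libraries of P63 were set beside the changes. Of 17136 genes tested at P63, 3056 (17.8%) were at least 2-fold higher in the pulldown and 3964 (23.1%) at least 2-fold lower, 41% together, at an FDR under 0.01. Among the genes that rose, Etnppl (log2 ratio 3.99), C3 (5.21), Slc39a12 (5.16), Gja1 (4.96), Sparc (3.95) and Ptch1 (3.71) were far higher in the pulldown, and Ermn (-1.19), P2ry12 (-2.19) and Csf1r (-3.31) lower. Among the genes that fell, Fabp7 (3.97), Ncan (3.46), Mdk (3.41) and Id3 (3.31) were far higher in it, and Ube2c (-0.06), Cdk1 (-0.11) and Igfbp2 (-0.02) near equal in both fractions. The P63 ratio is not a measure of P14 or P21.

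**Figure D4:**
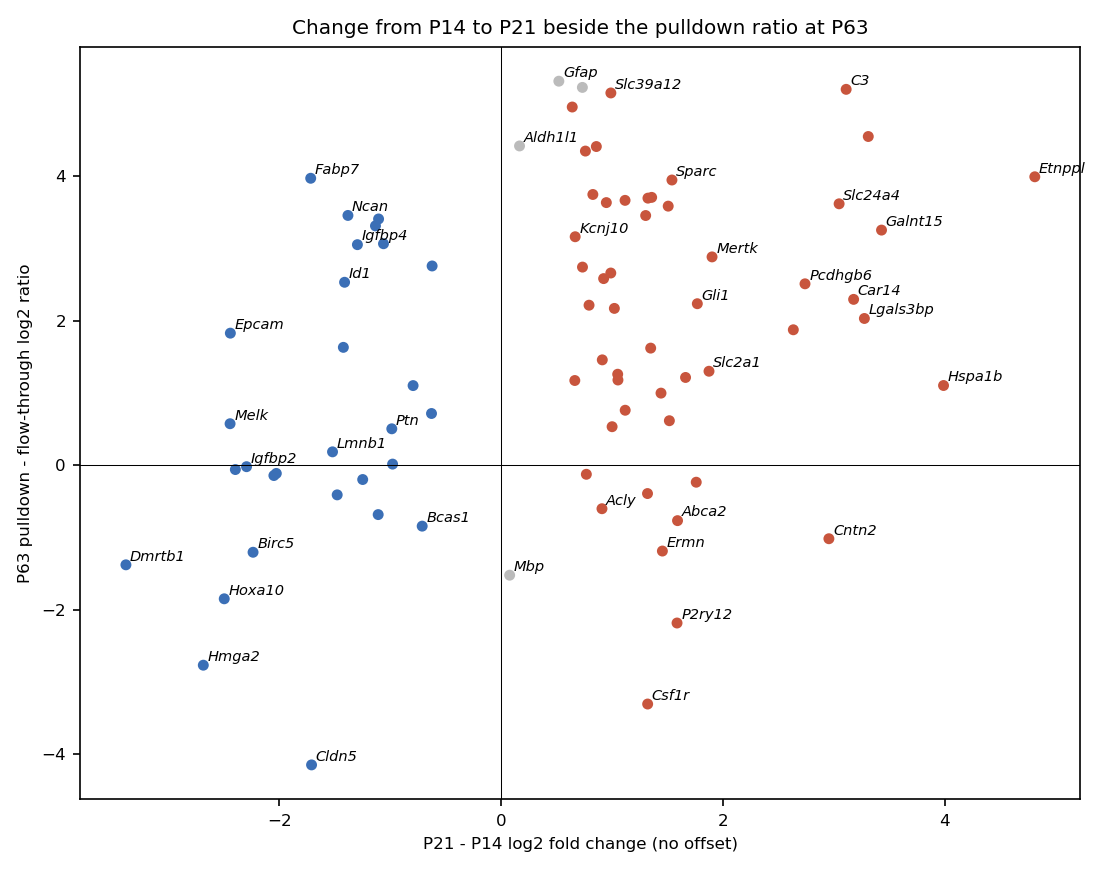
Each point is 1 of the genes described in the text: its P21 minus P14 log2 fold change without the offset (horizontal axis) and its P63 pulldown minus flow-through log2 ratio (vertical axis), red where higher and blue where lower at P21 at an FDR under 0.01, grey where not called. C3 and Etnppl lie at the upper right, at ratios of 5.21 and 3.99, Fabp7 and Ncan at the upper left, and Csf1r at the lower right, at a ratio of -3.31.

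No difference of the change between the labelled sexes passed at this number of libraries. With 2 or 3 libraries per age and sex, 0 of 17288 genes passed an FDR of 0.01 for the difference of the change between males and females by edgeR, 647 had an unadjusted p under 0.05, and DESeq2 called 0. Within females alone 2032 genes were called for P21 against P14, and within males alone 4659.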

How the data were processed

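Ribosome-bound RNA of mouse spinal cord was read as poly(A) libraries, and the values the authors deposited are counts per gene, whole numbers without normalization. Before deposit, Trimmomatic trimmed the reads, HISAT2 placed them on mm10, and featureCounts assigned them to genes, at default settings that ignore strand, so that overlapping antisense genes cannot be told apart. Each file lists 27179 gene IDs, of which 25275 matched a symbol in RefSeq GRCm38.p6. The 28 mGfap-line RiboTag libraries of uninjured mice were fitted together with edgeR 4.0.16 (filterByExpr, TMM, quasi-likelihood F test, two-sided, Benjamini-Hochberg FDR under 0.01), and the scripts were tested on simulated data. Values are normalised CPM and errors are SD. The error after a log2 fold change is its standard error, the log2 fold change divided by the square root of F. The length offset is a lowess fit (span 0.3) per library on log2 exon length. The P63 pulldown and flow-through libraries pair by number, since the deviations of the 5 same-numbered pairs correlated at 0.18 to 0.69. The P63 counts and ratios given are from the fit without this pairing, which called 7020 genes, against 6923 with the replicate number as a block. No libraries of an age were identical. Counts covered every library at depth, so the number of libraries limits precision.

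Members and gene lists were chosen with earlier results of these data known. Named genes are the 12 largest changes in each direction past the threshold, with a mean of at least 1 CPM at the higher age and no overlap, the 6 most abundant called genes in each direction, up to 4 called members of each list with its defining markers, and the 6 largest values in each direction for the change of step. Members named beyond these were chosen after their values were seen. Alternatives were DESeq2 1.42.0, its size factors, other filters and thresholds, fits of the compared ages or 1 sex alone, labelled sex as a covariate, the replicate number as a block and each library left out. Some members are not reported here.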

Additional observations from a re-analysis of the deposited data

Results flagged for a closer look

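In 10 of 172 groups of 4 or 5 libraries, 1 library stood farther from the others than Dixon's 95% critical value, and chance flags about 1 in 20. At P14 the library apart read 14.7 CPM for Cntn2, 43.5 CPM for Lss, 597 CPM for Ptn and 459 CPM for Gpr17. At P21 it read 113 CPM for Mdk, 4.21 CPM for Hoxa10, 2.75 CPM for Cldn5, 99.5 CPM for Rpl41 and 13.5 CPM for Nr3c2, and 1 P21 library had 97228799 counts in all.

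The change from P14 to P21 differed from that from P7 to P14 in 3845 genes by the edgeR test of the difference itself. Among named genes the difference of the log2 changes was 5.32 for Lgals3bp, 4.98 for Pcdhgb6, 4.71 for Pcdhga5, 4.51 for Pcdhga8, 4.42 for Pcdhga3 and 4.25 for Pcdhgb5. It was -5.56 for Dmrtb1, -4.87 for Epcam, -4.68 for Chad, -4.56 for Barx2, -4.41 for Smim3 and -4.24 for Opalin.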

How the results depend on the processing

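The count of 4165 genes between P21 and P14 was 3496 with the length offset, 4822 by DESeq2, 4868 with the replicate number as a block, 6153 with the compared ages alone, 5930 at an FDR of 0.05, 2032 in female mice alone and 1099 at 2-fold or more, and 3259 to 4061 with 1 library left out. With the length offset and 1 library left out it was 2531 to 3344, with 2739 without P21 replicate 2 and 2531 without P21 replicate 3. Same-numbered libraries of P14 and P21 correlated at -0.45 to 0.19, so they share only a number. The difference between the steps gave 3845 genes, 6174 with the compared ages alone, 5065 with the replicate block and 3052 to 3903 with 1 library left out. P14 against P7 gave 3388, 5592 with those ages alone, 4694 with the replicate block, 5123 at an FDR of 0.05, 1032 at 2-fold or more and 1869 to 3166 with 1 library left out, 1869 being without P7 replicate 1. P35 against P21 gave 119, 27 with those ages alone, 16 with the replicate block, 405 by DESeq2, 444 at an FDR of 0.05, 62 at 2-fold or more and 61 to 143 with 1 library left out, 70 without P21 replicate 2 and 61 without P21 replicate 3. P63 pulldown against flow-through gave 7020 and 6923 with the replicate block. Of 83 genes followed under the alternatives 2 changed sign. The log2 fold change of Mbp, 0.08, was -0.15 with the length offset and with length and GC offsets and -0.079 in female mice alone. With the length offset and P14 replicates 1 to 5 left out in turn it was -0.17, -0.049, -0.11, -0.20 and -0.22, and with P21 replicates 1 to 4 left out -0.21, -0.097, -0.12 and -0.19. That of Cst3, -0.62, was 0.10 with the length offset and 0.086 with length and GC offsets. With the length offset and P14 replicates 1 to 5 left out in turn it was 0.12, 0.13, 0.040, 0.086 and 0.12, and with P21 replicates 1 to 4 left out 0.12, 0.097, 0.072 and 0.098. Beyond what the offsets show by their construction, the cause was not tested.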
